A study of Mus musculus with 12 samples.

Results

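The genes described here mark the walls of blood vessels. They are 34 mouse genes chosen by symbol from a list of endothelial, pericyte and smooth muscle markers, and each symbol was matched to its Ensembl identifier among the 47643 identifiers counted. Of the 34, 24 mark endothelium and 10 mark mural cells, which are the pericytes and vascular smooth muscle cells around it. All but 1 of them had reads, so that 33 can be described, and 28 (19 endothelial and 9 mural) had enough reads to be tested among 6676 genes.

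The study asked how over-expression of c-myc, the transcription factor gene Myc, and an acute bout of high-intensity contraction act on the mRNA of mouse calf muscle. Gastrocnemius was taken from 6 female C57BL/6J mice of 11 weeks, 3 of them labelled control and 3 labelled c-myc over-expression. Each mouse gave a left leg labelled control, called uncontracted here, and a right leg labelled contracted, so that there were 4 groups of 3 libraries. Contraction and body side cannot be told apart, since the right leg was the contracted leg in all 6 animals. The labels do not say how Myc was over-expressed, in which cells, or at what time after the bout the tissue was collected.

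RNA was extracted from whole muscle and sequenced from its 3′ ends, and reads were counted per gene. The libraries held 1371732 to 1643216 reads in genes, of which 1082 to 1479 per library fell in the 24 endothelial genes and 354 to 584 in the 10 mural genes. Levels are given as CPM, the library's reads brought to one common total and scaled by the trimmed mean of M-values (TMM), a normalization of library sizes, and 1 read was worth 0.601 to 0.774 CPM. Markers of skeletal muscle fibres summed to 178710 to 226890 CPM in every library, and markers of neutrophils, which were at 0 to 3.67 CPM in uncontracted legs, were at 4.85 to 71.3 CPM in contracted legs. In whole muscle, fewer cells of a type and less RNA per cell cannot be told apart.

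Myc itself was low, and its reads did not follow the genotype labels in some contracted legs. Its counts in uncontracted legs were 0, 1 and 0 in control mice and 11, 9 and 9 in Myc mice, in the order of the animals' numbers. In contracted legs they were 1, 10 and 59 in control mice and 32, 0 and 2 in Myc mice. Numbers 2 and 3 of the contracted legs therefore had more Myc reads in the libraries labelled control than in those labelled c-myc over-expression. The 10 and 59 reads go against the label control only if contraction does not itself raise Myc, and the cause of these counts was not tested. For short, these 4 libraries are called at odds with their labels, and the calls below are also given without them. Leaving them out keeps 2 contracted libraries, and 107 of 7282 genes then passed for contraction (1.47%).

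Endothelial cells line every vessel. They hold together through junction proteins such as VE-cadherin, sense growth factors through receptors of the VEGF and angiopoietin families, and in muscle capillaries they pass water, lipid and gas between blood and fibres. Pericytes wrap capillaries, and smooth muscle cells wrap arterioles and set their diameter with a contractile apparatus of smooth muscle actin and myosin. Several of the mural contractile genes are known targets of serum response factor, which binds a DNA element called the CArG box.

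The promoters of Acta2, Myl9 and Mylk are shown because these 3 contractile genes had the lowest p of the mural genes in the contraction comparison below, in which Acta2 passed and Myl9 and Mylk did not. Each is 250 bases before and 50 after the RefSeq start in build GRCm38.p6, read 5′ to 3′ on the gene's own strand, from chr19:34255324-34255623 on the minus strand for Acta2, chr2:156775214-156775513 on the plus strand for Myl9 and chr16:34784700-34784999 on the plus strand for Mylk. Capitals mark matches to the CArG box, which is CC, a core of 6 bases and GG, searched on both strands with at most 1 G or C in the core.
Acta2: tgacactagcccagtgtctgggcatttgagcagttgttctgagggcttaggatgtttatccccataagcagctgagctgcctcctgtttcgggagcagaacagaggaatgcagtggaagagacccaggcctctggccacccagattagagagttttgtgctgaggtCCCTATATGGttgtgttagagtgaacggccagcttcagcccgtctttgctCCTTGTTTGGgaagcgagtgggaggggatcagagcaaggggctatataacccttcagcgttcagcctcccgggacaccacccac
Myl9: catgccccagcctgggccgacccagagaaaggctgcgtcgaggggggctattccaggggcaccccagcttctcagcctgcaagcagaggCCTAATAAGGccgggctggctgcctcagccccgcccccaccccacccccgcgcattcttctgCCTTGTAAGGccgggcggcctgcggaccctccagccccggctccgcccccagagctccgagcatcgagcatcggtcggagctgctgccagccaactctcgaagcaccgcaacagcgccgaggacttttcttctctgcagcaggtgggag
Mylk: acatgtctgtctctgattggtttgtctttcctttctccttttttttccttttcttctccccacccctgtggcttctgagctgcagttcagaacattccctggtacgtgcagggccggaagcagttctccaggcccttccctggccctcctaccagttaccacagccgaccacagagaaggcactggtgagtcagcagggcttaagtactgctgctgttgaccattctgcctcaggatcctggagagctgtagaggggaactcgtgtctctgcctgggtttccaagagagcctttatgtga
The Acta2 matches begin 84 and 34 bases before the start and the Myl9 matches 161 and 99 bases before it, and the Mylk window holds none. That window lies inside Mylk as annotated, chr16:34745210-35002420, and the sequence before the annotated 5′ end was not searched. Only the match at 161 in Myl9 has no G or C in its core. Windows were at hand for 12 endothelial and 7 mural genes. A match was present in 2 of the 7 mural windows (Acta2 and Myl9), in 4 of 16 endothelial windows (of Egfl7, Eng, Kdr and Tek) and in 9.98% of all 32851 mouse promoter windows. With no G or C allowed in the core, the counts were 1 of 7, 0 of 16 and 1.63%.

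In contracted legs 2 of the 28 tested vessel genes were lower and 1 was higher. Gpihbp1, the capillary protein that carries lipoprotein lipase to the vessel lumen, fell by 0.71 on the log2 scale, and Acta2, smooth muscle alpha-actin, fell by 0.55. Ly6a (Sca-1), a surface protein of endothelium and of several progenitor cells, rose by 0.63. The other 25 did not pass an adjusted p of 0.05. This comparison sets the 6 contracted against the 6 uncontracted legs as the mean of the differences in the 2 genotypes, and of all 6676 genes 7.47% passed in it, 5.71% higher and 1.77% lower. Both genotypes weigh the same in it, so it rests little on which contracted leg belongs to which genotype. Leaving out the libraries at odds with their labels leaves it fewer contracted legs, and a call lost there cannot be put down to the labels.

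**Figure D1:**
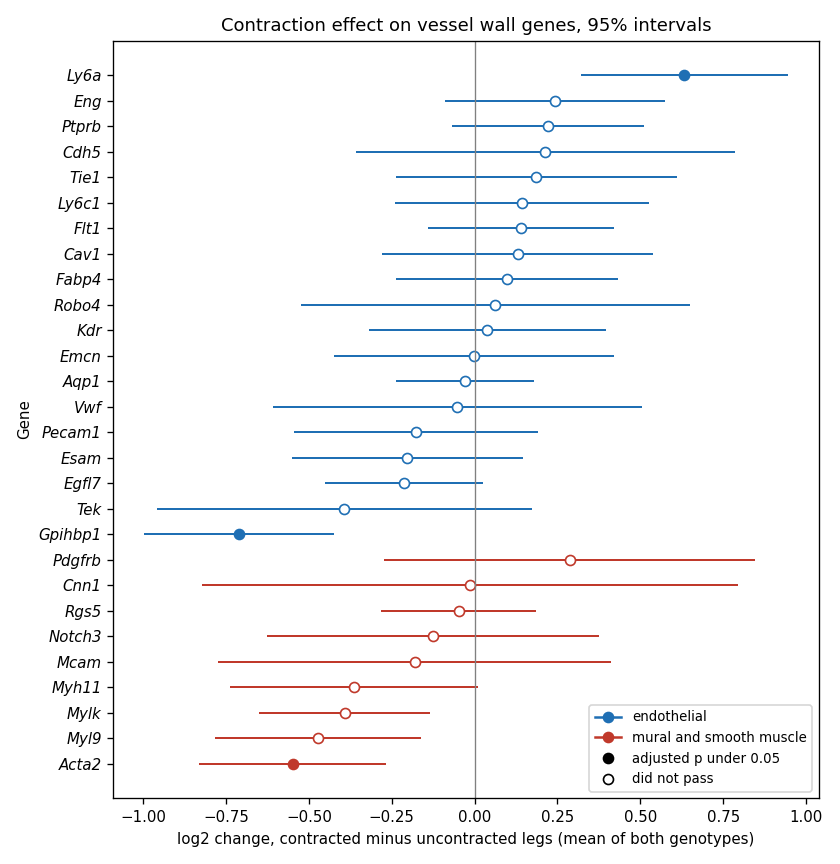
Log2 change between contracted and uncontracted legs, averaged over both genotypes, for the 28 tested genes (points) with 95% intervals (lines), endothelial in blue and mural in red, filled where the adjusted p was under 0.05. Only Ly6a, Gpihbp1 and Acta2 are filled, and the intervals of Myl9 and Mylk also lie below 0.

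Among endothelial receptors, none of the 5 passed. Kdr, the main VEGF receptor, was at 26.2 ± 6.31 CPM in uncontracted and 27.1 ± 5.14 CPM in contracted legs (SD, n = 6 each), a log2 change of 0.04 with a 95% interval from -0.32 to 0.39. Flt1, the VEGF receptor that binds without strong signalling, changed by 0.14 (-0.14 to 0.42). Tie1, the orphan partner of the angiopoietin receptor, changed by 0.19 and Eng, a co-receptor for BMP ligands, by 0.24, both with intervals that include 0. Tek, the angiopoietin receptor, was lower in the contracted leg of all 6 animals, as were 5.06% of the genes tested. Its levels were 7.88 ± 2.39 and 5.90 ± 1.38 CPM, its log2 change was -0.39 ± 0.27 (SE), and it did not pass (edgeR adjusted p = 0.458).

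None of the 6 tested junction and adhesion genes passed. Pecam1, an adhesion molecule at endothelial contacts, was at 27.1 ± 4.06 and 23.9 ± 6.39 CPM, and Cdh5, VE-cadherin, at 6.92 ± 2.53 and 8.07 ± 1.72 CPM. Esam changed by -0.20, Emcn by -0.00, the guidance receptor Robo4 by 0.06 and the phosphatase Ptprb, which acts on Tek and VE-cadherin, by 0.22. Each of these 6 intervals includes 0, and the narrowest, that of Ptprb, runs from -0.07 to 0.51. Cldn5, the tight junction claudin, had 57 reads in the 12 libraries and Ecscr 48, too few for the test. Of the Ecscr reads 17 came from contracted Myc library 2, and no other library had more than 8.

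Transport genes parted into Gpihbp1 and the rest. Aqp1, the water channel, supplied 4354 of the 15053 endothelial reads and was at 238 ± 31.0 CPM in uncontracted and 234 ± 22.0 CPM in contracted legs. Its interval, from -0.23 to 0.18, was the narrowest of the 28. Fabp4, a fatty acid carrier of capillaries and of adipocytes, changed by 0.10, and Cav1, the coat protein of caveolae, by 0.13. Neither passed.

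Gpihbp1, on chr15:75596628-75599481 (plus strand, mm10), stood at 36.3, 56.5 and 58.1 CPM in uncontracted control legs 1, 2 and 3 and at 44.7, 50.9 and 54.9 CPM in uncontracted Myc legs. In contracted legs it stood at 30.8, 33.6 and 28.5 CPM for control and at 33.1, 30.9 and 27.1 CPM for Myc. Every contracted leg was below every uncontracted leg, which held for 0.869% of the genes tested in this direction. The contracted leg was thus the lower one in 6 of 6 animals (5.06% of genes tested). The means were 50.2 ± 8.36 and 30.7 ± 2.54 CPM (SD, n = 6 each), a log2 change of -0.71 ± 0.14 (SE), or 1.64-fold lower (edgeR adjusted p = 0.0014).

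Set against the other 23 endothelial genes of the same library, Gpihbp1 was also lower: it gave 5.32 to 7.25 CPM per 100 CPM of the others in uncontracted legs and 3.14 to 4.34 in contracted legs, with no overlap. Without the 4 libraries at odds with their labels its log2 change was -0.65 and no longer passed (edgeR adjusted p = 0.212).

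**Figure D2:**
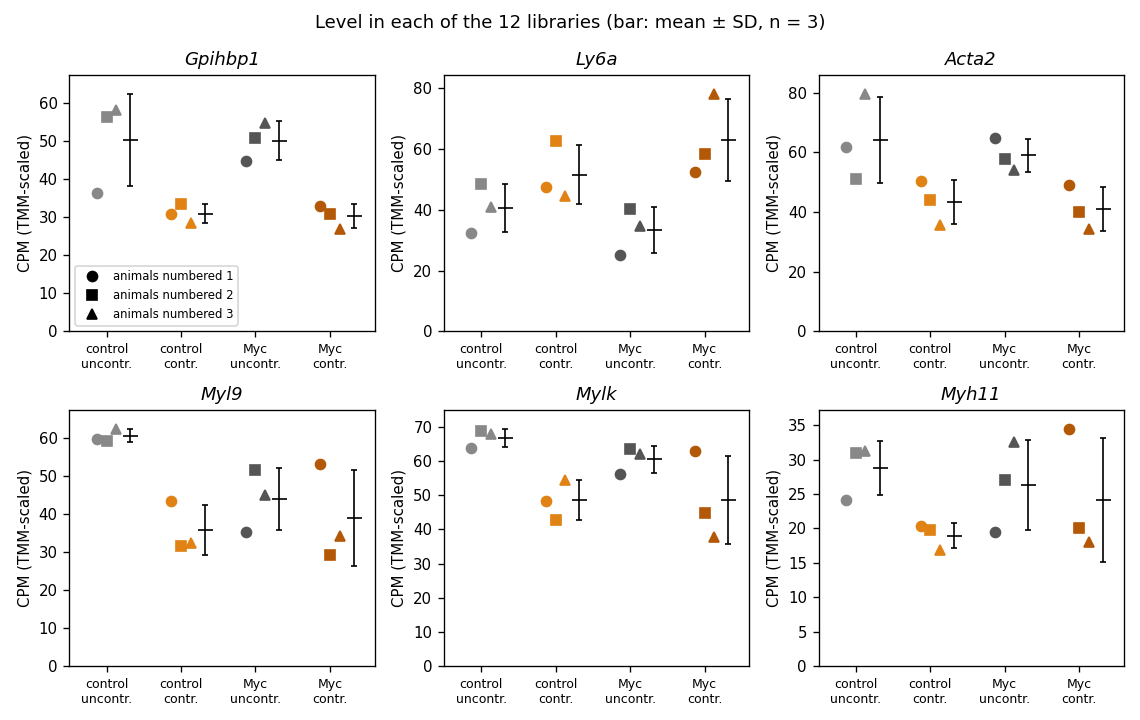
Level in CPM of 6 genes in each library by group, with animals numbered 1 to 3 within each genotype as circle, square and triangle and the mean ± SD of each group (n = 3) beside them. Gpihbp1 and Acta2 are lower in all contracted libraries, Ly6a is higher in the contracted leg of each animal, and contracted Myc library 1 is the highest contracted library for Myl9, Mylk and Myh11.

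The remaining endothelial genes hold secreted factors, an enzyme, surface proteins and transcription factors, and Ly6a was the only one to pass. It lies at chr15:74994877-74998031 on the minus strand, 46.0 kb from Ly6c1, a related surface protein gene, and 598.6 kb from Gpihbp1, which belongs to the same gene superfamily. Ly6a levels were 32.5, 48.4 and 41.0 CPM in uncontracted control legs and 25.2, 40.2 and 34.8 CPM in uncontracted Myc legs. They were 47.6, 62.5 and 44.7 CPM in contracted control legs and 52.4, 58.2 and 78.2 CPM in contracted Myc legs. The contracted leg was higher in 6 of 6 animals (6.86% of genes tested), but the ranges overlap, since 2 contracted control legs lie below the highest uncontracted leg.

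The Ly6a means were 37.0 ± 8.02 and 57.3 ± 12.2 CPM (SD, n = 6 each), a log2 change of 0.63 ± 0.15 (SE), or 1.55-fold higher (edgeR adjusted p = 0.00858). Without the 4 libraries at odds with their labels it was 0.44 (edgeR adjusted p = 0.577). Ly6c1 changed by 0.14 with an interval from -0.24 to 0.52, and the difference between the 2 genes was not tested. Egfl7, a factor that endothelium secretes into its matrix, changed by -0.21 (-0.45 to 0.02), and Vwf, the clotting factor of larger vessels, by -0.05. Nos3, the nitric oxide synthase, had 55 reads, the arterial factor Sox17 49, and Sox18 had 0 in all 12 libraries, where 3 reads would be 1.80 to 2.32 CPM.

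Of the 9 tested mural genes 8 had log2 changes below 0. Of the 6 contractile genes 5 were tested, all 5 had log2 changes below 0 with a median of -0.39, and 1 of them, Acta2, passed. Of the 4 receptor and signalling genes 3 were below 0, with a median of -0.09, and none passed. The median of all 6676 genes was -0.00, and the difference between the 2 groups of mural genes was not tested.

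Acta2, on chr19:34241090-34255590 (minus strand), stood at 61.7, 51.1 and 79.6 CPM in uncontracted control legs and at 64.9, 57.8 and 54.2 CPM in uncontracted Myc legs. It stood at 50.4, 44.1 and 35.6 CPM in contracted control legs and at 49.0, 40.0 and 34.3 CPM in contracted Myc legs. The highest contracted leg lies just under the lowest uncontracted leg, so the groups do not overlap (0.869% of genes tested in this direction). The contracted leg was lower in 6 of 6 animals (5.06% of genes tested). The means were 61.5 ± 10.1 and 42.2 ± 6.74 CPM (SD, n = 6 each), a log2 change of -0.55 ± 0.13 (SE), or 1.46-fold lower (edgeR adjusted p = 0.0117). Without the 4 libraries at odds with their labels it was -0.31 (edgeR adjusted p = 0.771).

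Myl9, the regulatory light chain, stood at 59.8, 59.2 and 62.4 CPM in uncontracted control legs and at 43.4, 31.6 and 32.4 CPM in contracted control legs. In Myc animals it stood at 35.3, 51.5 and 44.9 CPM in the uncontracted and 53.1, 29.1 and 34.3 CPM in the contracted legs, so that animal 1 went up and animals 2 and 3 went down. The averaged log2 change was -0.47 ± 0.15 (SE) and did not pass (edgeR adjusted p = 0.0548).

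Mylk, the kinase that activates this light chain, was at 63.6 ± 4.55 and 48.5 ± 8.92 CPM, a log2 change of -0.39 ± 0.12 (SE) that did not pass either (edgeR adjusted p = 0.0558). Myh11, the smooth muscle myosin heavy chain, changed by -0.36 (edgeR adjusted p = 0.256) and Cnn1, calponin, at 5.70 and 5.39 CPM, by -0.01. Tagln (SM22) had 31 reads, and 1241 of its 1988 exon bases also lie in the antisense gene Gm48529, so its reads cannot be assigned with certainty.

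Contracted Myc library 1 was the highest contracted library for Myl9, Mylk and Myh11. Without it, calls rose over all genes, from 499 of 6676 (7.47%) to 722 of 7018 (10.3%), of which 186 were lower in place of 118. Leaving out contracted control library 1 in its place gave a similar rise, to 709 of 7033 (10.1%), of which 220 were lower. Over the 19 alternatives run, Myl9 passed in 4, and Mylk and Myh11 in 1 each. Without contracted Myc library 1, 6 of the vessel genes passed in place of 3. The added genes were Myl9 (log2 change -0.61, edgeR adjusted p = 0.0039), Mylk (-0.50, edgeR adjusted p = 0.00496) and Myh11 (-0.53, edgeR adjusted p = 0.0446). Without the 4 libraries at odds with their labels, which keeps contracted Myc library 1 as 1 of 2 contracted libraries, these were -0.10, -0.20 and -0.05 and none passed.

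None of the 4 mural receptor and signalling genes passed. Rgs5, a pericyte regulator of G protein signalling, was at 73.1 ± 5.42 and 70.9 ± 11.5 CPM, a change of -0.05 with an interval from -0.28 to 0.18. Pdgfrb, the receptor through which endothelium recruits pericytes, changed by 0.29, Notch3, the Notch receptor of arterial smooth muscle, by -0.13, and Mcam, an adhesion molecule, by -0.18. These 3 had 157, 167 and 105 reads in all, and their intervals each span more than 0.9.

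Summed over the 24 genes, the endothelial level was 713 to 875 CPM (median 849) in uncontracted legs and 742 to 889 CPM (median 825) in contracted legs, and these ranges overlap almost fully. The 10 mural genes summed to 284 to 357 CPM and 213 to 295 CPM. Within them the 6 contractile genes summed to 180 to 254 CPM against 131 to 208 CPM, while the 4 receptor and signalling genes summed to 82.8 to 105 CPM against 81.8 to 109.9 CPM. Of the 6 contracted libraries, 5 had contractile sums of 131 to 164 CPM, below every uncontracted library, and contracted Myc library 1, at 208 CPM, lay within the uncontracted range.

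Per 100 CPM of endothelial genes, the contractile genes gave 23.3 to 29.8 CPM in uncontracted legs and 14.7 to 26.1 CPM in contracted legs. The mural receptor and signalling genes gave 9.89 to 14.7 CPM and 9.20 to 12.7 CPM. The sums are descriptions with no test, and each is weighted by its genes with many reads.

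**Figure D3:**
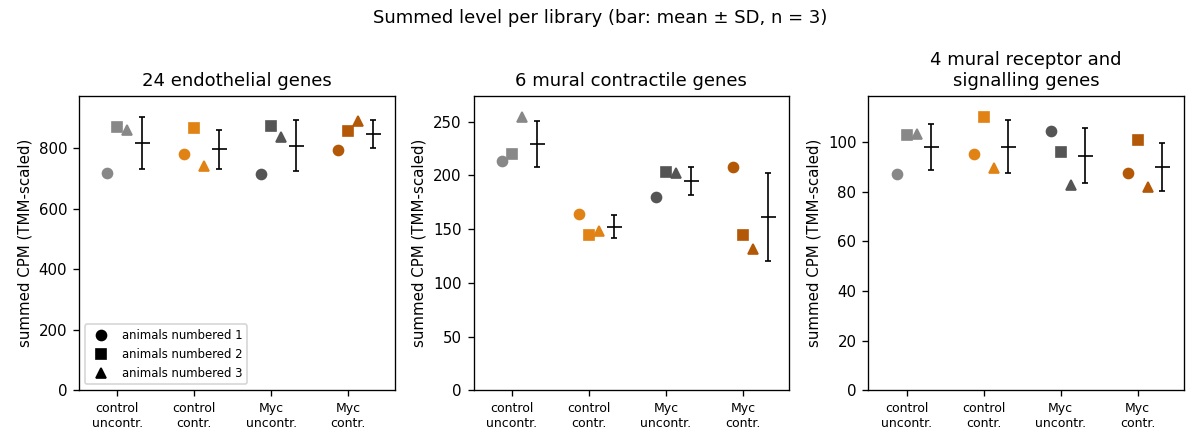
Summed CPM per library of the 24 endothelial, 6 mural contractile and 4 mural receptor and signalling genes in the 4 groups, with the mean ± SD of each group (n = 3) beside the points. The endothelial and receptor sums overlap between uncontracted and contracted groups, while contractile sums are 131 to 164 CPM in all contracted libraries but contracted Myc library 1.

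In control animals alone, 1 of the 28 genes passed for contraction, Myl9, with a log2 change of -0.76 ± 0.21 (SE, n = 3 each, edgeR adjusted p = 0.0498). Of all genes 2.80% passed in this comparison and 0.419% passed as lower. With the animal as a block, which uses the pairing of a mouse's legs, Myl9 did not pass (edgeR adjusted p = 0.107) and the count went from 1 to 0. The uncontracted and contracted control legs did not overlap for 8 tested genes, all lower with contraction, namely Tek, Egfl7, Gpihbp1, Acta2, Myh11, Myl9, Mylk and Mcam, against 7.12% of all genes. Gpihbp1 was at -0.70 (edgeR adjusted p = 0.0538) and Acta2 at -0.57 (edgeR adjusted p = 0.141). The medians were -0.13 for endothelial and -0.56 for mural genes.

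The call of Myl9 in control animals rests on single libraries. It was lost without any 1 of the 3 uncontracted control libraries, contracted control 2 or 3, uncontracted Myc 2 or 3, or contracted Myc 3, with edgeR adjusted p from 0.0569 to 0.246. The log2 change stayed between -0.93 and -0.67 over all 12 omissions of 1 library. Without uncontracted control 1 Gpihbp1 passed in its place (edgeR adjusted p = 0.00858), and without contracted Myc 1 both passed. Without the 4 libraries at odds with their labels, where the contracted control arm is 1 library assumed to vary like the other groups, 0.92% of all genes and no vessel gene passed, and Myl9 was at -0.48.

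In animals labelled c-myc over-expression, 2 of the 28 genes passed for contraction, against 3.89% of all genes (3.45% higher and 0.449% lower). Ly6a rose by 0.92 ± 0.21 (SE, n = 3 each, edgeR adjusted p = 0.0116) and Gpihbp1 changed by -0.72 ± 0.19 (SE, edgeR adjusted p = 0.0359). With the animal as a block Ly6a still passed, Gpihbp1 did not (edgeR adjusted p = 0.057) and the count went from 2 to 1. The uncontracted and contracted Myc legs did not overlap for Ly6a, which was higher (10.3% of all genes), nor for Gpihbp1, Acta2 and Esam, which were lower (9.20%). The medians were 0.12 for endothelial and -0.13 for mural genes.

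These calls also moved with single libraries. Ly6a was lost without uncontracted Myc 1 (edgeR adjusted p = 0.0912) or contracted Myc 3 (0.123). Gpihbp1 was lost without uncontracted Myc 2 or 3 or contracted Myc 2 or 3, with edgeR adjusted p from 0.12 to 0.185. The omission of the 4 libraries at odds with their labels leaves 1 contracted library per genotype, which is assumed to vary like the other groups, and 0.81% of all genes passed in Myc animals. Neither gene did, with Ly6a at 0.66 and Gpihbp1 at -0.58.

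Whether contraction acted differently in the 2 genotypes was tested as an interaction, and none of the 28 genes passed, as was the case for all 6676 genes (0.00% called, 331 genes with an unadjusted p under 0.05, and 0 called by DESeq2). The difference of the log2 changes, Myc minus control, was 0.57 for Ly6a (95% interval -0.05 to 1.19) and 0.57 for Myl9 (-0.04 to 1.19), both with edgeR adjusted p = 0.967. It was -0.02 (-0.59 to 0.54) for Gpihbp1 and 0.04 (-0.52 to 0.60) for Acta2. The intervals of Ly6a and Myl9 thus reach past a doubling in 1 direction, and a p above the threshold does not show that the genotypes responded alike.

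**Figure D4:**
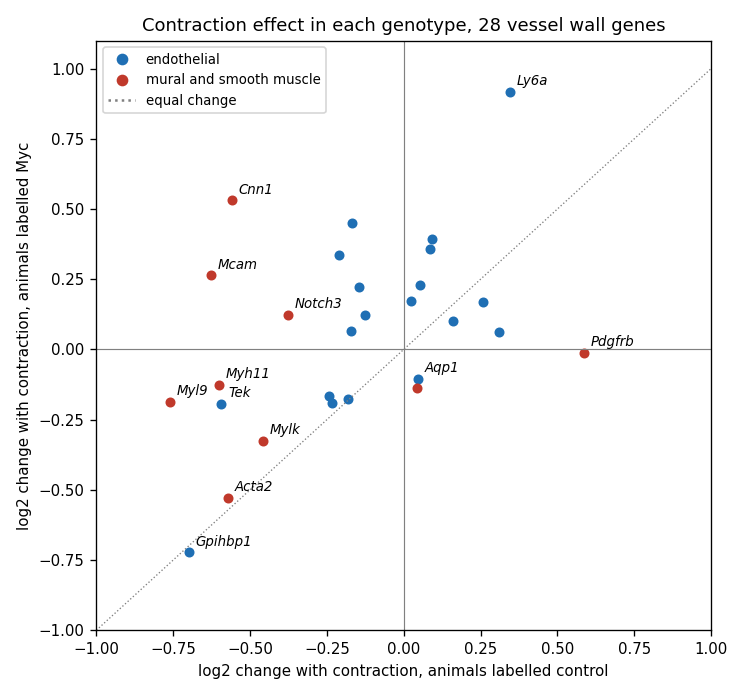
Log2 change with contraction in animals labelled control (x axis) against animals labelled c-myc over-expression (y axis) for the 28 tested genes, endothelial in blue and mural in red, with the line of equal change dotted. Gpihbp1 (-0.70 and -0.72) and Acta2 (-0.57 and -0.53) lie near the line, and Ly6a (0.35 and 0.92) and Myl9 (-0.76 and -0.19) lie above it.

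Between genotypes, no vessel gene passed in either leg, where edgeR called 0.00% of all genes. In uncontracted legs 421 of all genes had an unadjusted p under 0.05 and DESeq2 called 1, and in contracted legs 205 had one and DESeq2 called 0. The vessel gene with the lowest adjusted p in uncontracted legs was Myl9, at 60.5 ± 1.71 CPM in control and 43.9 ± 8.14 CPM in Myc legs (SD, n = 3 each), a log2 change of -0.46 (edgeR adjusted p = 0.703). All 3 Myc legs were below the 3 control legs for Myl9, Mylk and Mcam, against 5.60% of all genes in this direction. In uncontracted legs all 5 tested contractile genes had values below 0 with a median of -0.14, as had 3 of the 4 mural receptor and signalling genes, with a median of -0.17. Genes of other lists lay below 0 too, 13 of 14 fibroblast markers (median -0.25) and 15 of 19 cytoskeletal genes linked to serum response factor (median -0.27). In contracted legs 3 of the 5 contractile genes were above 0, with a median of 0.11. Emcn and Egfl7 were higher in all 3 contracted Myc legs than in the 3 contracted control legs, as were 4.21% of all genes. The uncontracted control legs enter the genotype comparison of uncontracted legs, the contraction comparison in control animals and the interaction. The values of a gene in these comparisons are therefore not independent, which holds for Myl9, Mylk and Mcam and for the signs of the contractile genes.

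Other genes of the vessel wall, taken from lists beside the 34, were read in the same averaged contraction comparison. These lists and those of the paragraphs below were chosen with earlier results of these data known. Their shares of called genes are therefore descriptions and no test of the lists. Of 20 tested further endothelial markers, 1 rose and 2 fell, where 5.71% of all genes passed as higher and 1.77% as lower. Ramp2, the partner of the adrenomedullin receptor, went from 30.0 ± 5.83 to 17.1 ± 2.81 CPM (log2 change -0.81, edgeR adjusted p = 0.00143). Cd300lg, a surface protein of capillary endothelium, went from 38.5 ± 3.56 to 26.1 ± 7.21 CPM (-0.57, edgeR adjusted p = 0.0328). Rgcc, a cell cycle regulator induced in endothelium, went from 9.16 ± 3.78 to 29.8 ± 9.87 CPM (1.71, edgeR adjusted p = 9.1e-05). Of 11 tested further mural markers none passed, and 8 were below 0.

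Genes of activated or flow-exposed endothelium were read in the same way. Thbd, the thrombomodulin that restrains clotting on endothelium, rose from 7.52 ± 1.66 to 63.5 ± 19.3 CPM, a log2 change of 3.07. Mt2, a metallothionein made by most cells, rose by 3.23, while Sgk1, a kinase made by many cells, fell by 0.76. Klf2, the flow-induced factor, was at 0.17 and did not pass.

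Of 13 tested angiogenic ligands, receptors and Notch genes, 3 rose and none fell, where 5.71% of all genes passed as higher and 1.77% as lower. Angptl4, a secreted inhibitor of lipoprotein lipase that muscle fibres and fat also make, rose from 3.05 ± 1.33 to 13.3 ± 7.45 CPM (log2 change 2.04). Pdgfa, a growth factor for mesenchymal cells, rose from 12.6 ± 4.73 to 24.7 ± 10.9 CPM, and Hif1a, the hypoxia factor, by 0.72. In the contracted leg Pdgfa was higher in 4 animals and lower in 2. Of 6 tested endothelial transcription factors, Ets2 rose by 0.82 and Foxo1, which muscle fibres also express, was at -0.70. Of 2 tested lymphatic markers, Pdpn, which fibroblasts also express, rose by 2.19, and Lyve1 was at 0.12 and did not pass.

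Serum response factor acts on cytoskeletal genes of many cell types as well as on the smooth muscle genes. Of 19 tested genes of this kind 4 rose with contraction and none fell, namely Actn1 (1.12), Lima1 (0.85), Myh9 (0.52) and Actb (0.44). Over all genes 5.71% passed as higher and 1.77% as lower. By sign, 13 of the 19 were above 0 and 6 below. Of the 5 tested smooth muscle contractile genes 1 fell (Acta2), none rose, and all 5 were below 0. Most of the 19 genes are expressed outside vessels, so their values are those of whole muscle. The part of serum response factor in the values of either group of genes was not tested. When the 4 libraries at odds with their labels were left out, Thbd, Mt2, Foxo1 and Pdpn still passed and the other genes of these lists named above as passing did not. Over the 19 alternatives run, Cd300lg lost its call in 9, Lima1 in 10, Actb in 11 and Myh9 in 14. Pdgfa lost its call in 5, Hif1a in 3 and Foxo1 in 2.

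Markers of other cells also differed between contracted and uncontracted legs, where 5.71% of all genes passed as higher and 1.77% as lower. Neutrophil markers were at 4.85 and 7.24 CPM in contracted Myc 2 and contracted control 2 and at 24.1 to 71.3 CPM in the other 4 contracted libraries, with both tested genes higher, while Cxcr2, Csf3r and Ly6g were at 0 in all 12. Erythrocyte markers summed to 310.3 to 462 CPM in uncontracted and 399 to 1000.4 CPM in contracted legs, and all 4 tested genes rose, although Hbb-bs lost its call in 12 and Hba-a2 in 3 of 19 alternatives. In contracted control 2 and contracted Myc 2 the erythrocyte sums, 399 and 424 CPM, lay within the uncontracted range. Macrophage markers summed to 122 to 217 and 109 to 164 CPM, of which Cd68 rose and C1qa and Csf1r fell. Csf1r lost its call in 9 and C1qa in 6 of 19 alternatives. The neutrophil and erythrocyte genes still passed without the 4 libraries at odds with their labels and the 3 macrophage genes did not. The part of these cells in the vessel gene results was not tested.

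Ly6a is also a marker of fibroblast progenitors. Of the 14 tested fibroblast markers Ly6a itself was the only one that passed in the averaged comparison, where 5 were above 0. In Myc animals, where Ly6a was at 0.92, 11 of the 14 were above 0, and in control animals, where it was at 0.35, 3 were. The fibroblast sums in uncontracted legs 1, 2 and 3 were 1131, 1111 and 1217 CPM in Myc and 1408, 2018 and 1927 CPM in control animals. In contracted legs they were 1108, 1801 and 1763 CPM in Myc and 1462, 1274 and 1510.0 CPM in control animals. The sum was thus higher in the contracted leg of Myc animals 2 and 3 and lower in that of control animals 2 and 3. These contracted legs are the libraries at odds with their labels. The fibroblast sum includes Ly6a itself, and its part in the Ly6a values was not tested. Of the 7 tested adipocyte markers, which include Fabp4, none passed.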

How the data were processed

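Libraries were made with the QuantSeq 3′ mRNA-Seq kit, per the labels' protocols. The authors deposited whole-number read counts per Ensembl gene. The submitters' processing notes name FastQC 0.11.5, STAR 2.5.2a, SAMtools, HTSeq 0.6.0 and the mm10 build. The strand setting of the counting is not given in the sources used here, so reads of a gene and an overlapping antisense gene cannot be told apart. Besides Tagln, this touches Nos3 (1040 of 4132 exon bases shared with 1 opposite-strand gene), Sox17 (804 of 4772), Mylk (548 of 11263) and Notch3 (488 of 8089). Other members shared fewer.

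The 34 genes and all other gene lists were chosen with earlier results of these data known. All 34 may be named, and from each other list the 3 genes with the lowest p in the averaged contraction comparison plus those that passed in a comparison described. Counts were tested in R 4.3.3 with edgeR 4.0.16, by the quasi-likelihood test on 4 group means over 12 libraries, after TMM normalization and filterByExpr with a minimum count of 10. The 6 comparisons were 2-sided, with Benjamini-Hochberg adjustment over 6676 genes and a threshold of 0.05. Intervals are at 95%. Alternatives were DESeq2 1.42.0, other scalings and filters, fewer groups, an animal block (limma 3.58.1 for the Myc comparisons) and left-out libraries.

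Left and right legs with one number and genotype come from the same mouse, per the titles. Within the 6 animals the deviations of both legs from their group means correlated at -0.12 to 0.11 across genes, and the pairing is taken from the titles. Every contraction result of the vessel genes was refitted with the block. Replicates are separate animals. The fit was tested on simulated data. Positions are from GENCODE M21 (mm10) and promoter windows from RefSeq GRCm38.p6. One result from the list of activated endothelium is not reported here.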

Additional observations from a re-analysis of the deposited data

How the results depend on the processing

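The averaged contraction changes of Gpihbp1, Acta2 and Ly6a kept their direction and passed under each alternative run but 1, the omission of the 4 contracted libraries numbered 2 and 3, which leaves fewer samples. Under that omission 0 vessel genes passed for averaged contraction, for control animals and for Myc animals. The count for averaged contraction was 3 to 6 with 1 library left out and 5 without the low-count filter. For control animals it was 0 with library totals alone, DESeq2 and the replicate block, 2 with RLE size factors and with the filter removed or stricter, and 0 to 2 with 1 library left out. For Myc animals it was 3 without the low-count filter (Ecscr added), 1 with library totals alone, DESeq2 and the replicate block, and 0 to 2 with 1 library left out. The block changed no other call of a vessel gene. No vessel gene passed in the Myc comparisons or the interaction under any alternative.

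Endothelial medians on the log2 scale moved to -0.096 for averaged contraction without the 4 libraries. In control animals they moved to 0.020 without the filter and 0.011 with the stricter one. Mural medians moved to -0.39 (averaged) and 0.16 (interaction) with the stricter filter, and to 0.20 (contraction in Myc animals) and 0.39 (Myc in contracted legs) without the 4 libraries. With 1 library left out, the mural median ranged from -0.33 to -0.12 for averaged contraction, from -0.61 to -0.38 in control animals, from 0.0061 to 0.26 for Myc in contracted legs and from 0.14 to 0.60 for the interaction, and the endothelial median in control animals from -0.14 to 0.061.

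Some log2 changes that had not passed changed sign. In the averaged comparison, without the 4 libraries, Cdh5 was at -0.16, Kdr at -0.030, Tie1 at -0.12, Fabp4 at -0.0069, Cav1 at -0.22, Vwf at 0.13, Robo4 at -0.17, Pdgfrb at -0.21 and Notch3 at 0.19. In Myc animals, also without them, Myl9 was at 0.29, Mylk at 0.069 and Myh11 at 0.42. With library totals alone, Emcn was at 0.031 and Cnn1 at 0.015. With 1 library left out, the averaged change ranged from -0.070 to 0.15 for Kdr, -0.11 to 0.054 for Emcn, -0.0060 to 0.27 for Ly6c1, -0.093 to 0.045 for Aqp1, -0.068 to 0.20 for Fabp4, -0.23 to 0.14 for Vwf, -0.12 to 0.25 for Robo4, -0.20 to 0.23 for Cnn1, -0.12 to 0.0062 for Rgs5 and -0.33 to 0.016 for Notch3, and that of Myh11 in Myc animals from -0.46 to 0.046.

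The cause of these changes was not tested. At 1 read per 0.601 to 0.774 CPM, Sox18, Tagln, Ecscr, Sox17, Nos3 and Cldn5 were too shallow to test, and intervals of genes with under 200 reads were wide.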
